A study of Mus musculus with 8 samples.

Results

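The proteasome genes are those whose array probes carry a single mouse gene symbol that starts with Psma, Psmb, Psmc, Psmd, Psme, Psmf or Psmg and a digit. This rule uses names and no measured value. It found 92 probes of 46 genes, and 44 genes, with 79 probes, passed the filter of 3 or more measured arrays per genotype, out of 11804 features tested and 7603 named genes. Of these 44 genes, 16 encode subunits of the core (Psma and Psmb), 6 the ATPases (Psmc), 14 the lid and base or their assembly factors (Psmd), 3 activators (Psme) and 3 core assembly chaperones (Psmg). The other 2, Psmc3ip and Psme3ip1, encode partners of a subunit and were kept out of the classes.

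The samples were hearts of neonatal wildtype C57BL mice and of neonatal connexin43 null C57BL mice, which lack the main gap junction protein of working heart muscle, encoded by Gja1. There were 4 pools for each genotype, each of 3 hearts, labelled with Cy3 and hybridised beside 1 common Cy5 reference of adult tissues, heart among them, from both sexes. Animals were pooled, the exact age of the neonates is not given, and no sample was treated, so the spread is between pools and not between single mice. Each value is a log2 ratio, heart over reference, after the median of its array was set to 0, and a difference is the mean of null pools minus that of wildtype pools.

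The proteasome degrades proteins tagged with ubiquitin. Its barrel-shaped core has outer rings of alpha subunits, which gate the entrance, and inner rings of beta subunits, some of which carry the cutting sites. A regulatory particle docks on the core: its lid removes ubiquitin, and its base holds the ATPase ring that unfolds the substrate. Heart muscle relies on this system to renew its contractile proteins, and interferon swaps the cutting subunits for inducible ones that favour antigen presentation.

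Gja1 averaged 1.03 ± 0.21 in wildtype and 0.08 ± 0.25 in null pools (SD, n = 4 each), and the groups did not overlap. Where its 1 probe lies relative to the deleted part is not known here. Arrays had values at 12971 to 23929 of 28704 spots, and wildtype pool 1 stood apart, with the fewest values and a median rank correlation to the rest of 0.576, against 0.663 or more elsewhere. Of the 15 heart muscle markers listed, 6 were measured, with mean levels of 0.69 to 1.17 on the 8 arrays. Their mean was 0.95 ± 0.07 in wildtype and 0.94 ± 0.20 in null pools (SD, n = 4 each). The lowest array was null pool 1, as it was for the proteasome genes. Their median per array averaged 0.95 ± 0.13 in wildtype and 0.86 ± 0.15 in null pools (SD, n = 4 each), with overlap. Values were lower in null pools for 4 of the 6 markers, beside 59.1% of all features, with 0 called. Differences ran from -0.21 for Myl7 to 0.33 for Nppa. Pln, at -0.19, had null below wildtype without overlap, as did 5.54% of all features. Markers of other adult tissues, 11 of 25 measured, lay far below the reference and were lower in null pools for 11 of 11 genes. Of these, 4 had an unadjusted p under 0.05 in limma, beside 6.13% of all features with lower values at that limit, and 0 were called. Over the 9 with values on all arrays their mean was -2.03 ± 0.24 in wildtype and -2.38 ± 0.18 in null pools (SD, n = 4 each), without overlap. Erythroid markers, 9 of 15 measured, had higher values in null pools for 7 genes, with 0 called. Higher values were found for 4831 of all 11804 features. What part these differences play in the proteasome values was not tested.

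**Figure D1:**
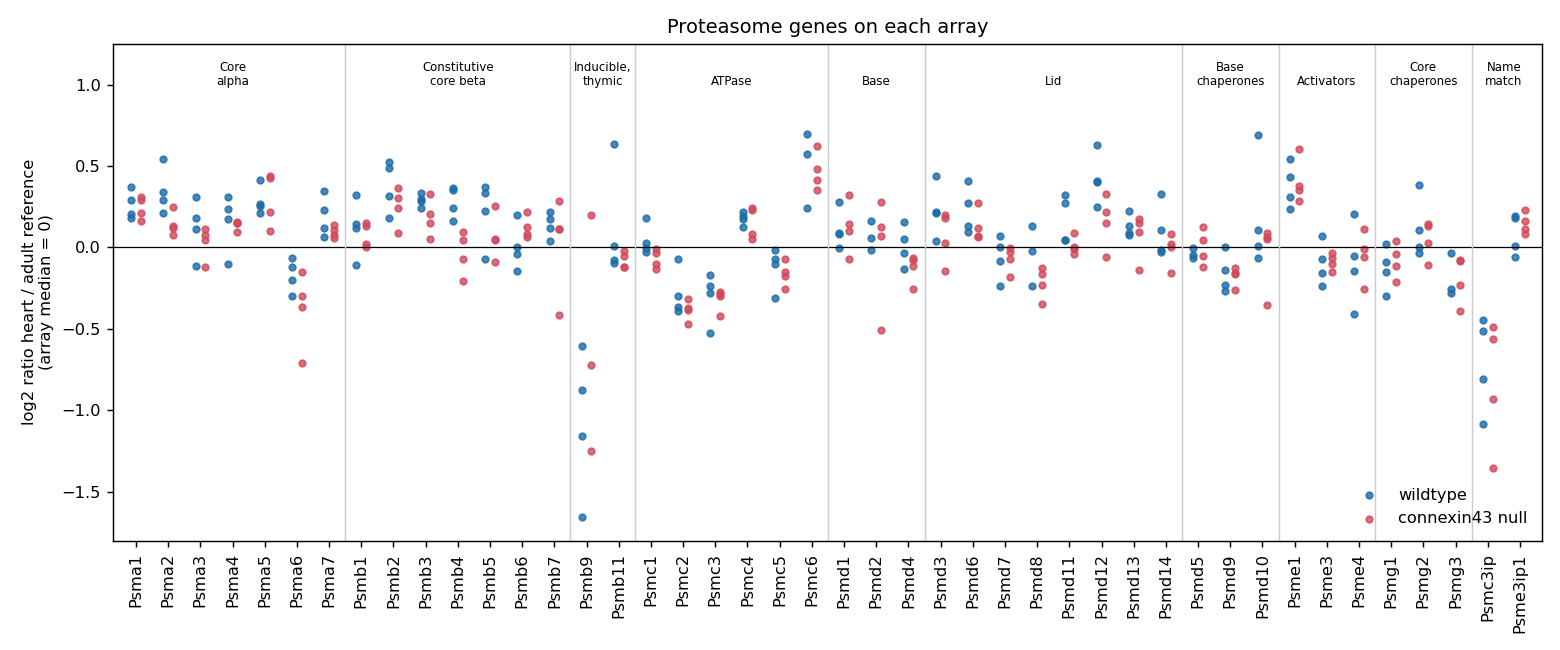
Log2 ratio of heart over adult reference (vertical axis, array median at 0) for the 44 proteasome genes, ordered by role, with a point for each wildtype (blue) and connexin43 null (red) pool. Most genes lie within 0.5 of 0 in both genotypes, Psmb9 and Psmc3ip lie lowest, and the red and blue points overlap for all genes but Psmb4.

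The first question was whether transcripts of the proteasome differ between hearts with and without connexin43. No proteasome gene passed an adjusted p of 0.05 in limma: 0 of 44 were called, as were 0.0% of all features. The smallest adjusted p among the 44 was 0.554. Gja1, the deleted gene, was not called either, with a difference of -0.95 and an adjusted p of 0.340 in limma. That was the smallest adjusted p of all features, so the lack of calls does not show that the proteasome genes are unchanged. Values were lower in null pools for 34 of the 44 genes, or 77.3%, while 59.1% of all features had lower values. The median log2 difference of the 44 genes was -0.07, against -0.04 for all features. At an unadjusted p under 0.05 stood 1 gene with a lower value, Psmb4, and 0 with a higher one, beside 6.13% and 2.1% of all features. In either direction together, 1 of 44 genes stood there, beside 8.23% of all features, so the genes were not richer in small p-values than the background. Psmb4 was also the 1 gene whose groups did not overlap with null below wildtype, and 0 genes had null above wildtype, beside 5.54% and 2.0% of all features.

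Fewer genes stood out when set against the median of all features, -0.04, in place of 0. Below that median lay 25 of the 44 genes, with 21 without null pool 1 and 29 without null pool 3. The excess of values below 0 rested in part on single arrays. Over the 36 subunits and factors with a value on all arrays, the mean log2 ratio was 0.07, 0.07, 0.13 and 0.14 in wildtype pools 1 to 4 and -0.06, 0.03, 0.01 and 0.11 in null pools 1 to 4. Null pool 4 thus lay among the wildtype pools, and null pool 1 lay lowest. Below their wildtype mean lay 30 of the 36 genes on null pools 1 and 2 each. On null pool 3 this held for 26 genes and on null pool 4 for 17. Of the 8238 features with values on all arrays, 52.0%, 60.7%, 59.8% and 53.1% lay below theirs on null pools 1 to 4. Without null pool 1 the count of lower values was 28 of 44 and the median -0.02, against -0.04 for all features. With all arrays the median of the 44 genes was -0.07. Without wildtype pool 3 it was -0.046, against -0.037 for all features. Without wildtype pool 4 it was -0.044, against -0.045 for all features, so that the median was no lower than the background. The count of lower values was 32 of 44 in each of these 2 settings. Without wildtype pool 1, the array that stood apart, 37 of 44 were lower and the median was -0.09. With deposited values not centred, 43 of 44 genes and 85.0% of all features were lower, with medians of -0.25 and -0.18. In pools of whole hearts, fewer cells of a type and less RNA per cell cannot be told apart.

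**Figure D2:**
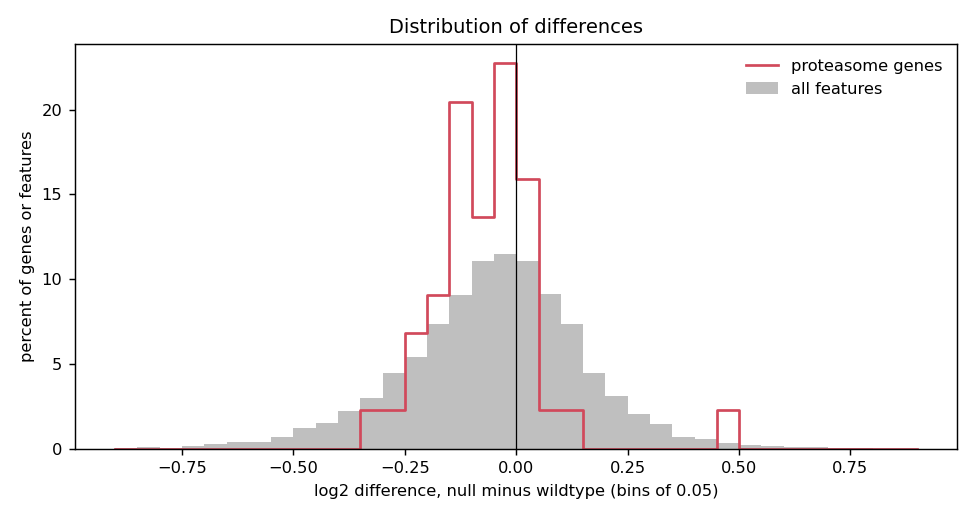
Share of proteasome genes (red line) and of all features (grey bars), in percent, by log2 difference of null minus wildtype in bins of 0.05. The proteasome genes sit in a narrower range than all features, mostly just below 0, with Psmb9 alone at the right. Features beyond 0.9 either way are not drawn.

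The values spread less than those of all features, but the sets are unlike. Of the 44 genes, 25 average several probes and 38 have values on all arrays, against 3035 and 8238 of the 11804 features. What part this plays in the spread and the intervals was not tested. The median within-genotype SD was 0.13 for the 44 genes and 0.19 for all features. For 38 of the 44 genes, or 86.4%, the 95% confidence interval of the difference lay within 0.5 on the log2 scale, which is a 1.41-fold change either way, against 63.1% of all features. Genes whose interval reached past that bound were Psmb4, Psmb9, Psmb11, Psmd10, Psmd12 and Psmc3ip.

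**Figure D3:**
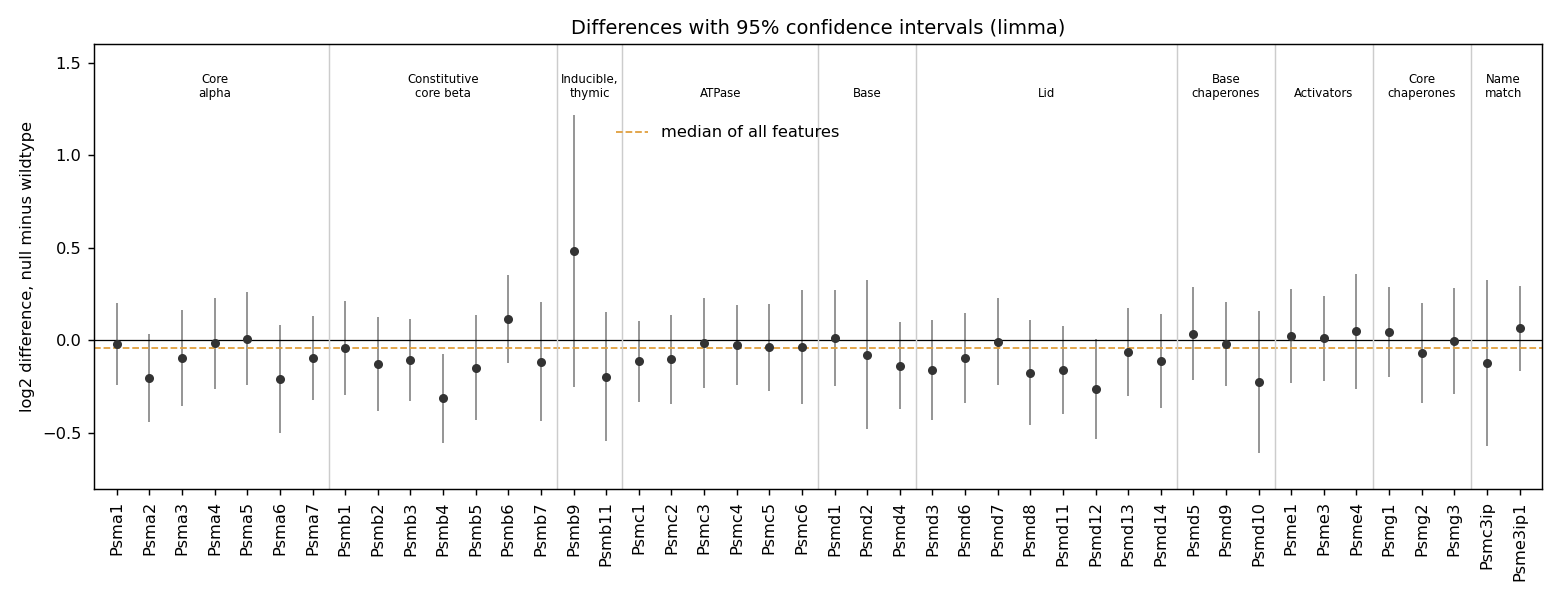
Log2 difference of null minus wildtype (points) with its 95% confidence interval from limma (lines) for each proteasome gene, ordered by role. The dashed line is the median of all features, -0.04. Intervals of nearly all genes cross 0, Psmb4 excepted, and that of Psmb9 is the widest.

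Among the alpha subunits, which form the outer rings of the core, 6 of 7 had lower values in null pools, with a median log2 difference of -0.10 and 0 called. Psma2 read 0.21, 0.29, 0.54 and 0.34 in wildtype pools 1 to 4 and 0.12, 0.13, 0.08 and 0.25 in null pools. Its groups overlapped narrowly, since null pool 4 lay above wildtype pool 1. Its difference was -0.20 (SE 0.11, adjusted p = 0.620 in limma). An exact permutation test, two-sided, on the difference of means gave p = 0.0571, or 0.229 adjusted over 16 such tests. Psma6, also a single-probe gene, was below the array median on all 8 arrays, with -0.30, -0.20, -0.12 and -0.07 in wildtype and -0.36, -0.30, -0.71 and -0.15 in null pools. Null pool 3 lay lowest, and the difference of -0.21 (SE 0.13, adjusted p = 0.667 in limma) was -0.10 without it. Psma7 read 0.07, 0.12, 0.35 and 0.23 in wildtype and 0.11, 0.08, 0.06 and 0.14 in null pools, and its 3 probes gave differences of -0.07 to -0.11. Wildtype pools 3 and 4 were thus the high ones. The remaining alpha genes, Psma1, Psma3, Psma4 and Psma5, had differences between -0.10 and 0.01. Psma1, with 4 probes, had -0.02 (95% interval -0.24 to 0.20).

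The constitutive beta subunits build the inner rings, and 6 of 7 had lower values in null pools, with a median difference of -0.11 and 0 called. Psmb4, a structural beta subunit without a cutting site, had the lowest difference of all 44 genes. It read 0.35, 0.16, 0.37 and 0.24 in wildtype pools 1 to 4 and -0.07, 0.05, -0.21 and 0.10 in null pools, so that every null pool lay below every wildtype pool. The means were 0.28 ± 0.10 and -0.03 ± 0.13 (SD, n = 4 each), with a difference of -0.31 (SE 0.11, 1.24-fold lower, unadjusted p = 0.0154, adjusted p = 0.554 in limma). An exact permutation test, two-sided, gave p = 0.0286, the smallest that 70 assignments allow. It was 1 of 16 such tests on proteasome genes, with an adjusted p of 0.229 over these tests (Benjamini-Hochberg). Most of the 16 genes were picked for a small limma p on the same values, so these tests add no separate support. Both of its probes gave lower values, -0.26 and -0.35, the second with a value on 7 of 8 arrays, so that the fit filled 1 array from the first. Where only the complete probe of Psmb4 counted (-0.26, SE 0.13), the unadjusted p of Psmb4 in limma was not under 0.05. Without 1 array its difference ranged from -0.36 to -0.26.

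Of the constitutive beta genes with cutting sites, Psmb5 and Psmb7 had lower and Psmb6 higher values in null pools, with 0 called, and differences between these genes were not tested. Psmb5, which carries the chymotrypsin-like site, read -0.07, 0.22, 0.37 and 0.33 in wildtype and 0.05, 0.05, -0.09 and 0.26 in null pools. Wildtype pool 1 and null pool 3 were the low ones, and the difference was -0.15 (SE 0.13). Psmb7, which carries the trypsin-like site, read 0.04, 0.18, 0.12 and 0.22 in wildtype and -0.41, 0.12, 0.29 and 0.11 in null pools, where null pool 1 alone lay below 0. Psmb6, which carries the caspase-like site, read -0.14, -0.04, 0.0035 and 0.20 in wildtype and 0.06, 0.08, 0.12 and 0.22 in null pools. Its difference was 0.12 (SE 0.11, adjusted p = 0.773 in limma), or -0.04 without centring, with overlap through wildtype pool 4. Psmb2, a structural subunit, read 0.52, 0.32, 0.49 and 0.18 in wildtype and 0.09, 0.30, 0.24 and 0.36 in null pools, a difference of -0.13 (SE 0.12). The structural genes Psmb1 and Psmb3 had -0.04 and -0.11. Both probes of Psmb3 gave -0.11.

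The 250 bases before the transcription start are shown for 4 genes: Psmb4 and Psmd12, which had the lowest differences of the core and of the lid, and Psmb9 and Psme1, a pair of interferon-induced genes with levels far apart. They are from RefSeq, build GRCm38.p6, 5′ to 3′ on the strand of the gene, and capitals mark the motifs described further on.
Psmb4, chr3:94886959-94887208, strand -: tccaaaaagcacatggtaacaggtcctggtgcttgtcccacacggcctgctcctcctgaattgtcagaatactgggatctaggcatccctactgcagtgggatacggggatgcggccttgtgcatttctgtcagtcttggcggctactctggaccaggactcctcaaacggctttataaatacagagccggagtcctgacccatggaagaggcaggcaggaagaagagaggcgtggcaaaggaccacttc
Psmd12, chr11:107479278-107479527, strand +: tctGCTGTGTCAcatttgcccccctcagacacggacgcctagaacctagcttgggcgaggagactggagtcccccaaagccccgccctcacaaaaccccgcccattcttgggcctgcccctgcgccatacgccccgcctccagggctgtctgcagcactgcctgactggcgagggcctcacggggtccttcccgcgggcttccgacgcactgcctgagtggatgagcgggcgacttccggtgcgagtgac
Psmb9, chr17:34187331-34187580, strand -: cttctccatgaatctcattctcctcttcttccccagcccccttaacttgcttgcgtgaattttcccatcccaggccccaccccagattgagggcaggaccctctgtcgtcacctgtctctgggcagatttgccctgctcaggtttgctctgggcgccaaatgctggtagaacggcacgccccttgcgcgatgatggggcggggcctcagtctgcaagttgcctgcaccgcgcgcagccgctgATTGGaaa
Psme1, chr14:55578244-55578493, strand +: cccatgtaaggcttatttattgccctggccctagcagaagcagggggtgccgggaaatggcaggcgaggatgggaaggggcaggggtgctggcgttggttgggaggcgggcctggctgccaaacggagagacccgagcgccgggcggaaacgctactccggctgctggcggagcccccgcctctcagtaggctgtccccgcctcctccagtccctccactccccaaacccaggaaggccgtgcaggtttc

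Interferon induces Psmb8, Psmb9 and Psmb10, which replace the constitutive cutting subunits Psmb5, Psmb6 and Psmb7. Of these, Psmb9 was measured, and it had the lowest level of all 44 genes. It read -0.87, -0.61, -1.66 and -1.16 in wildtype pools 1 to 4 and -0.72, -1.25 and 0.20 in null pools 1 to 3, with no value in null pool 4. All pools but null pool 3 were far below the array median, and the genotypes overlapped. The difference of 0.48 (SE 0.33, adjusted p = 0.697 in limma) was 0.09 without null pool 3, 0.29 without wildtype pool 3 and 0.81 without null pool 2. It is the highest difference of the 44 genes and also the least certain, with a 95% interval of -0.25 to 1.22. Psmb9 minus the mean of Psmb5, Psmb6 and Psmb7 was -1.82 to -0.62 on 6 of 7 arrays and 0.09 on null pool 3.

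Psmb8 missed the limit on missing values, since its 1 probe had values on 3 wildtype and 2 null arrays. These were 0.02, -0.82 and -0.31 in wildtype pools 2 to 4 and -0.83 and -0.13 in null pools 3 and 4. Psmb10 was not analysed here. Leukocytes express inducible subunits constitutively, and 9 of the 22 leukocyte markers listed were measured. Over the 7 of them with values on all arrays the mean level was -0.98 to -0.58 in wildtype and -0.95 to -0.67 in null pools, with null pool 3 the lowest null array at -0.95 while Psmb9 was highest there. What part leukocytes play was not tested. Psmb11, which replaces Psmb5 in cortical cells of the thymus, read 0.63, 0.01, -0.10 and -0.08 in wildtype and -0.05, -0.12, -0.02 and -0.12 in null pools. Wildtype pool 1 alone was high, and the probes of Psmb11 gave differences of -0.05 and -0.34.

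The ATPases form the ring that unfolds substrates and threads them into the core. All 6 had values that were lower in null pools, but by little, with differences from -0.11 to -0.02, a median of -0.04 equal to that of all features, and 0 called. Without 1 array the median ran from -0.09 (without wildtype pool 1) to -0.0069 (without wildtype pool 4). Psmc1 read -0.03, -0.00068, 0.03 and 0.18 in wildtype and -0.13, -0.01, -0.10 and -0.03 in null pools, where wildtype pool 4 was the high one. Its difference was -0.11 (SE 0.10, adjusted p = 0.757 in limma), on 2 spots of the same clone that gave -0.02 and -0.24. Psmc2 read -0.37, -0.39, -0.07 and -0.30 in wildtype and -0.47, -0.38, -0.37 and -0.32 in null pools. Its difference was -0.10 (SE 0.11), while its 3 probes, also spots of 1 clone, ranged from -0.22 to 0.01. Psmc5, with 4 probes between -0.05 and -0.03, had -0.04 (SE 0.11) from -0.31, -0.10, -0.07 and -0.02 in wildtype and -0.15, -0.25, -0.17 and -0.07 in null pools. A clone was repeated among these 4 probes. The 95% interval of every ATPase gene stayed within 0.35 of 0.

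The base also holds large scaffold subunits, Psmd1 and Psmd2, and the ubiquitin receptor Psmd4, with differences of 0.01, -0.08 and -0.14. Psmd2, with 3 wildtype arrays, had its lowest value on null pool 1, -0.51, against 0.07 to 0.28 on the other null pools. In the lid, all 8 measured genes had lower values in null pools, with a median difference of -0.14 and 0 called. Over the 7 lid genes with values on all arrays the mean level was 0.17, 0.13, 0.13 and 0.27 in wildtype pools 1 to 4 and -0.02, 0.06, 0.01 and 0.15 in null pools. Only null pool 4 lay within the range of the wildtype pools.

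Psmd12, a scaffold subunit of the lid, had the lowest difference of its class. It read 0.63, 0.41, 0.25 and 0.40 in wildtype and 0.33, 0.15, -0.06 and 0.22 in null pools. Wildtype pool 3 lay below null pool 1, so that the groups overlapped. The difference was -0.26 (SE 0.12, 1.20-fold lower, adjusted p = 0.594 in limma), with an exact two-sided permutation p of 0.0571, or 0.229 adjusted over 16 such tests. Psmd11, another lid scaffold, read 0.27, 0.05, 0.05 and 0.32 in wildtype and -0.04, -0.0072, 0.0028 and 0.09 in null pools. Its difference of -0.16 (SE 0.11) came from probes that did not give like values, -0.46, -0.07 and 0.05. Psmd8, with 3 wildtype arrays, read -0.24, -0.02 and 0.13 in wildtype pools 1, 2 and 4 and -0.23, -0.16, -0.34 and -0.12 in null pools. Its difference was -0.18 (SE 0.13, adjusted p = 0.719 in limma), with overlap through wildtype pool 1. Psmd14, the enzyme that cleaves ubiquitin chains from the substrate, had -0.11 (SE 0.12), and its inactive partner Psmd7 had -0.0086 (SE 0.11) on 3 probes between -0.0070 and 0.00040. The scaffold genes Psmd3, Psmd6 and Psmd13 had -0.16, -0.10 and -0.06.

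Psmd5, Psmd9 and Psmd10 encode chaperones that assemble the base and leave the finished particle. Psmd10 read 0.69, 0.11, 0.01 and -0.07 in wildtype and -0.35, 0.09, 0.05 and 0.06 in null pools. Its difference of -0.22 (SE 0.17) lay between the pools numbered 1 of both genotypes, since the other 6 values fell within -0.07 and 0.11. The probes of Psmd10 gave -0.07, with values on 7 arrays, and -0.21. Psmd5 and Psmd9 had 0.03 and -0.02.

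The activators cap the core in place of the regulatory particle. Their 3 measured genes had differences of 0.01 to 0.05, with a median of 0.02 and 0 called, so that their signs depend on where each array is centred. Without centring, which lowered the median of all features from -0.04 to -0.18, they were -0.15 to -0.11. Under the other 4 normalizations Psme4 stayed between 0.06 and 0.08, while Psme1 and Psme3 turned under some. Psme1, which forms the interferon-induced cytoplasmic ring together with Psme2, read 0.24, 0.31, 0.54 and 0.43 in wildtype and 0.29, 0.35, 0.38 and 0.60 in null pools. Its difference was 0.02 (SE 0.12, 95% interval -0.23 to 0.28), and -0.00095 after quantile normalization. Psme3, which forms a nuclear ring, read -0.24, 0.07, -0.15 and -0.07 in wildtype and -0.15, -0.07, -0.10 and -0.03 in null pools, a difference of 0.01 (SE 0.10), or -0.03 with centring within print blocks. Psme4, a large single-chain activator known for its role in sperm formation, read 0.20, -0.15, -0.41 and -0.05 in wildtype and -0.25, -0.01, 0.12 and -0.06 in null pools. Psme2 was not analysed here, and the inhibitor gene Psmf1 had a value on 1 wildtype array only, 0.81.

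Psmg1, Psmg2 and Psmg3 encode chaperones that order the alpha subunits into a ring. Psmg1 read -0.30, -0.15, -0.09 and 0.02 in wildtype and -0.11, -0.21, 0.04 and -0.04 in null pools. Psmg2 read 0.39, 0.0020, 0.11 and -0.03 in wildtype and 0.03, 0.13, -0.11 and 0.15 in null pools. Psmg3, with 3 wildtype arrays, read -0.03, -0.28 and -0.26 in wildtype pools 2 to 4 and -0.39, -0.23, -0.08 and -0.08 in null pools. Differences were 0.05 (SE 0.11), -0.07 (SE 0.12) and -0.0049 (SE 0.13), each with overlapping groups. The probes of Psmg2 gave -0.02, with values on 7 arrays, and -0.03, both nearer 0 than the fitted difference. Of the genes that match by name, Psmc3ip, which acts in meiotic recombination, had -0.12 (SE 0.20) and Psme3ip1 had 0.07 (SE 0.10).

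The classes were then set side by side. Median log2 differences were -0.10 for the core, -0.04 for the ATPases, -0.10 for the lid and base and 0.02 for the activators, against -0.04 for all features. Counts of lower values were 13 of 16, 6 of 6, 12 of 14 and 0 of 3. The core had a mean level of 0.11, 0.16, 0.27 and 0.19 in wildtype pools 1 to 4 and -0.0042, 0.08, 0.06 and 0.17 in null pools, over 15 genes measured on all arrays. Null pool 4 lay above wildtype pools 1 and 2, so that the groups overlapped. The lid and base had 0.15, 0.07, 0.08 and 0.20 in wildtype and -0.09, 0.03, 0.0038 and 0.11 in null pools, over 11 genes, again with null pool 4 among the wildtype pools. Without null pool 1 the medians were -0.05 for the core and -0.07 for the lid and base, and without wildtype pool 4 that of the lid and base was -0.05. Class by genotype was not tested, since the members of a class share their arrays.

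**Figure D4:**
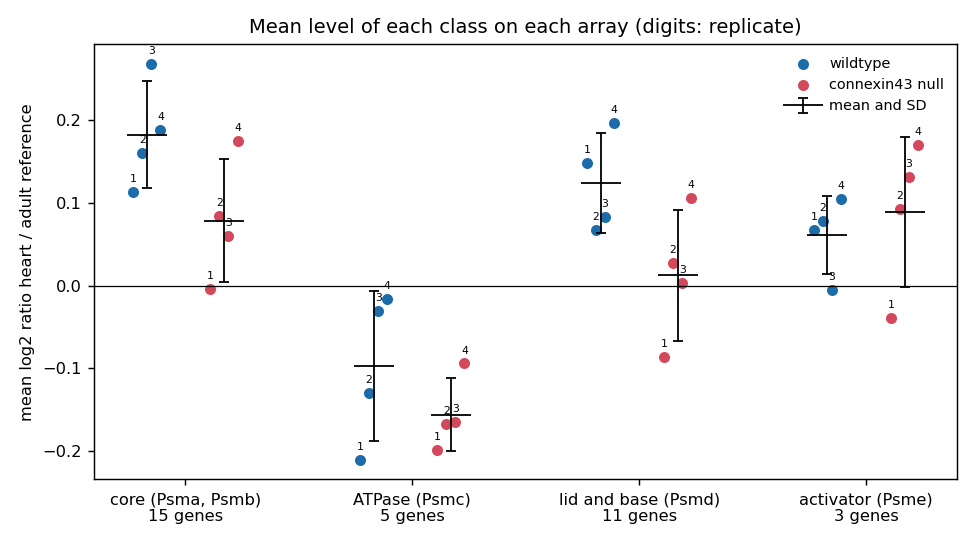
Mean log2 ratio of heart over adult reference on each array for the core, ATPase, lid and base, and activator genes measured on all arrays, with wildtype pools in blue, connexin43 null pools in red, digits for the pool number, and bars for mean and SD (n = 4). Wildtype and null pools overlap in each class, and the ATPases lie below the core on all 8 arrays.

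Mean levels against the adult reference ran from -0.87 for Psmb9 to 0.48 for Psmc6 over the 44 genes. Such a level sets the heart against a mixture of adult tissues, carries the bias of the dyes, and says nothing of how abundant a transcript is. Of the 44 genes, 28 had a mean level above 0, against 50.2% of all features, and 42 lay within 0.5 of 0, as did 86.1% of all features. Above 0 on all 8 arrays lay 9 genes, and Psmc6 on the 7 that measured it, while 6 lay below 0 on every array they were measured on. The core stood at a median level of 0.13 and the ATPases at -0.08. Core genes averaged 0.26 above the 5 ATPase genes with complete values, with 0.19 to 0.32 on the 8 arrays. Psmc6, which lacked a value on wildtype pool 3, is the ATPase gene with the highest level, 0.48, and with it the gap was 0.15 on average and 0.09 to 0.23 on 7 arrays.

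The ATPase genes had ratios to the reference on both sides of the array median. Psmc6 read 0.57, 0.24 and 0.70 in wildtype pools 1, 2 and 4 and 0.36, 0.62, 0.41 and 0.48 in null pools. Psmc3 read -0.53, -0.28, -0.23 and -0.17 in wildtype and -0.30, -0.27, -0.42 and -0.29 in null pools, with -0.32 and -0.30 on average for its 2 probes. Psmc4 read 0.18, 0.13, 0.19 and 0.22 in wildtype and 0.05, 0.08, 0.24 and 0.23 in null pools. Psmc2, Psmc3 and Psmc5 lay below 0 and Psmc4 above 0 on all 8 arrays, in both genotypes. Psmc6 exceeded the mean of Psmc2, Psmc3 and Psmc5 by 0.50 to 0.97 on 7 of 7 arrays. Psmc6 and Psmc4 had 1 probe each, Psmc2, Psmc3 and Psmc5 had 3, 2 and 4. Those of Psmc2 were all spots of 1 clone, and a clone was repeated among the 4 of Psmc5.

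Psme1 and Psmb9 are both induced by interferon, yet stood far apart: Psme1 had a mean level of 0.39, above 0 on 8 of 8 arrays, and Psmb9 of -0.87. Psme1 exceeded the mean of the other activators Psme3 and Psme4 by 0.25 to 0.82 on 8 of 8 arrays, and its 2 probes averaged 0.28 and 0.50. In the core, Psma6 was the constitutive gene that stood apart, at -0.28, while the other alpha genes had mean levels of 0.08 to 0.29 and the constitutive beta genes of 0.06 to 0.31.

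Probes of 1 gene are no replicates, and 25 of the 44 genes had several. Their differences had opposite signs for 12 genes, most of them near 0, and their mean levels for 10. For Psmd7, Psmd10 and Psmg2, each with a probe on 7 arrays, the fitted difference lay outside the range of the probes. The widest range of levels between probes of 1 gene was 0.50, for Psme3ip1, followed by Psmd1 with 0.40. Values of Psma6, Psmb9 and Psmc6 each rest on 1 spot per array.

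Promoters of RefSeq, build GRCm38.p6, matched 37 of the 44 genes by symbol, with 40 windows of 300 bases, from 250 before to 50 after the start, on 14 chromosomes. The motifs searched on both strands were the following. TGACNNNGC is the core of the antioxidant and Nfe2l1 site, and CCAAT is the CCAAT box. The core of the interferon-stimulated response element was searched as GAAA, any 2 bases and GAAA again, and the Stat site as TTCNNNGAA. The last 2 can share letters. TGACNNNGC was in 6 of 40 windows, against 12.4% of all 32851 windows, and these belonged to Psmb5, Psmb6, Psmc6, Psmd9, Psmd12 and Psme4. CCAAT was in 16 of 40, against 37.4% of all, and in 8 of 14 core windows. The interferon-stimulated response element core was in 4 of 40, against 3.44% of all, those of Psmb3, Psmd4, Psmd9 and Psme1. TTCNNNGAA was in 2 of 40, Psmd2 and Psmg1, against 8.30% of all. The median GC content was 59.0% for these windows and 52.7% for all.

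In the sequences printed above, Psmd12 holds GCTGTGTCA, the reverse strand of TGACNNNGC, and Psmb9 holds ATTGG, the reverse strand of CCAAT, 8 bases before its start. The Psmb4 window holds none of these letters, and in Psme1 the match, TTTCGCTTTC, lies just after the start and outside the part shown. A match is a string of letters and not a shown binding site. Genes with TGACNNNGC had differences from -0.26 (Psmd12) to 0.12 (Psmb6).

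Genes that work with the proteasome without carrying a Psm symbol were listed as well, 31 symbols of which 15 were measured. Of these, 5 had lower and 10 higher values in null pools, with a median difference of 0.03 and 0 called. Nfe2l1, a transcription factor that raises proteasome genes when the proteasome is inhibited, read -0.39, -0.18, 0.02 and -0.06 in wildtype and 0.01, -0.01, -0.07 and 0.01 in null pools. Its difference was 0.14 (SE 0.11, adjusted p = 0.739 in limma), or -0.02 without centring. Nfe2l2, the related factor of the antioxidant response, had 0.20 (SE 0.20), and wildtype pool 4 read -1.02 there. Nploc4, a cofactor of the segregase Vcp that extracts tagged proteins, had -0.16 (SE 0.15), and Pomp, which matures the core, 0.09 (SE 0.12).

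Antigen presentation loads peptides cut by the proteasome onto cell-surface molecules, and interferon raises its genes. Of a list of both kinds, 9 of 20 symbols were measured, 6 with lower and 3 with higher values in null pools and 0 called. Tap1, the peptide transporter gene that neighbours Psmb9 in the RefSeq gene table of GRCm38.p6, read 0.51, -0.37, -0.38 and -0.42 in wildtype and -0.87, -0.77, -0.71 and -0.59 in null pools. Its groups did not overlap, and its difference was -0.57 (SE 0.19, adjusted p = 0.553 in limma), or -0.34 without wildtype pool 1. Psmb9 had its difference in the other direction, 0.48 (SE 0.33), and neither passed. Tapbp, Calr and Irf9 had -0.35 (SE 0.17), 0.39 (SE 0.19) and 0.27 (SE 0.15).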

How the data were processed

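Dual-channel arrays were hybridised with heart cDNA in Cy3 and a common adult reference in Cy5, per the labels. The deposited values are log ratios per spot; scanner, background correction, spot filter and scaling: not given in the sources used here. That the deposited log ratios are log2 was read from their values. Within blocks of 598 rows, differences between spots equalled the logged quotient of integers (at most 120, tolerance 1.5e-09) for 8347 of 31304440 pairs with base 2, 269 with base e and 863 with base 10. The labels do not name the numerator. Heart was taken as numerator because the median of heart muscle markers lay above that of markers of other adult tissues on 8 of 8 arrays.

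Arrays were centred on their median. Probes came from the platform annotation, where symbols can be old: 18511 of 28704 had 1 symbol, 937 several and 9256 are unnamed here. Where a gene had several probes, an additive model with a term for each probe and each array gave its value. The difference between genotypes was tested by lmFit and eBayes of limma 3.58.1 (R 4.3.3), with Benjamini-Hochberg adjustment over 11804 features and a threshold of 0.05, and intervals are at 95%. Scripts were tested on simulated data. Python 3.11.15, scipy 1.17.1 and pandas 2.3.3 were used otherwise. The number of arrays limits the precision.

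Genes described singly are Gja1, all inducible core genes and activators, the 3 with the smallest p in each other class, and up to 4 of each other list. Further genes were named after their values were seen. Members, lists and rules were chosen with earlier results of these data known. Alternatives were centring, normalization, missing values, probe averaging, variance estimates, the replicate number and leaving out arrays. Same-numbered pools did not deviate together: the correlations over 8238 features were -0.24, -0.01, -0.25 and -0.02 for numbers 1 to 4.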

Additional observations from a re-analysis of the deposited data

Results flagged for a closer look

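Of 109 groups of 4 pools checked among the genes and classes described, 3 held a pool far from the other 3 by Dixon's test, where chance alone flags about 5% of groups. Psmb11 read 0.63 in wildtype pool 1, against -0.10 to 0.01 in the other wildtype pools. Psmd10 read -0.35 in null pool 1, against 0.05 to 0.09 in the other null pools. Tap1 read 0.51 in wildtype pool 1, against -0.42 to -0.37 in the other wildtype pools.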

How the results depend on the processing

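No feature and no proteasome gene was called under any alternative run (0 each), also at an adjusted p of 0.10 and with each array left out. At an unadjusted p under 0.05 stood 0 to 6 proteasome genes over these settings. The 6 of 44 came without centring, where 1392 of 11804 features stood there too. The main run had 1 of 44, beside 972 of 11804 features. All other settings had 0 to 2 genes, beside 614 of 8078 to 1297 of 11804 features. With 1 array left out, 28 to 38 of 44 genes had lower values, and median differences ranged from -0.10 to -0.024 for all proteasome genes, -0.13 to -0.055 for the core, -0.095 to -0.0069 for ATPases, -0.15 to -0.055 for lid and base, and -0.024 to 0.064 for activators. Without centring these medians were -0.25, -0.26, -0.23, -0.28 and -0.13, with -0.18 for all features, so that all features shifted down as well. Deposited array medians were 0.21, -0.10, -0.31 and -0.11 in wildtype pools 1 to 4 and -0.34, -0.28, -0.08 and -0.24 in null pools. Wildtype pool 1, the array that stood apart, was alone above 0. Of the 10 proteasome genes with higher values, 9 had lower ones without centring, all but Psmb9. Among the genes described singly, signs turned for Nfe2l1 (-0.018), Pomp (-0.070), Psme1 (-0.13), Psme3 (-0.15), Psme4 (-0.11) and Psmg1 (-0.11). Psmg3 turned to 0.0068 with centring on shared spots, 0.031 with quantile normalization, 0.025 with scaling to equal spread and 0.060 with the replicate block. Psme1 turned to -0.00095 with quantile normalization and -0.013 with scaling. Psmc5 turned to 0.021 and Psme3 to -0.025 with centring within print blocks. Psmg1 turned to -0.024 with a minimum of 2 arrays per genotype. Nploc4 turned to 0.10 and Psmc2 to 0.012 on the probe with the fewest missing values. With array weights Psme3, Psmg1 and Psmg2 turned to -0.029, -0.026 and 0.063, and Psmb9 had 0.021 in place of 0.48. With 1 array left out, the sign turned within the ranges of Nfe2l2 (-0.016 to 0.35), Psme1 (-0.043 to 0.078), Psme3 (-0.037 to 0.067), Psme4 (-0.054 to 0.15), Psmg1 (-0.0097 to 0.097), Psmg2 (-0.12 to 0.024) and Psmg3 (-0.049 to 0.074). The cause of these turns was not tested. With the replicate block 0 proteasome genes were called and 34 of 44 had lower values, the same counts as without it, and the labels do not say that the numbers pair the pools. Signal over background is not known for these arrays.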
